A study of Caenorhabditis elegans with 2 samples.

Results

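The peaks described here are sites in the Caenorhabditis elegans genome where the TATA-binding protein TBP-1 gave a ranked but weaker chromatin immunoprecipitation signal at the start of a protein-coding gene. They were chosen by their deposited signal and by position. In the list called on both replicates pooled, peaks were ordered by signal, and ranks 3863 to 10000 were taken, which begin just after the 3862 peaks that the authors kept as reproducible. By its deposited name that list holds peaks and background. No peak of these ranks was among those kept as reproducible, so a peak described here need not be a bound site. Of these 6138 peaks, 2454 had their summit within 500 bp of the 5′ end of a protein-coding transcript, and 23 of those were removed because the 5′ end of a tRNA, snoRNA, snRNA or rRNA gene was also in reach. The remaining 2431, of 30000 pooled peaks, are called the weaker peaks below. Peaks of ranks 1 to 3862 that met the same position rule are called the stronger peaks (1552), and those of ranks 10001 to 30000 the later peaks (5328).

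TBP-1 was profiled in whole young adults of strain OP746, 65 hours old, males and females pooled, after synchronisation by bleaching and starvation at the first larval stage. All animals carry the mutation unc-119(tm4063) and the transgene wgIs746, in which tbp-1 is joined at its C-terminal end to TY1, EGFP and 3xFLAG tags and which also brings unc-119(+). The chromatin, broken by sonication, was immunoprecipitated with anti-GFP. There was 1 group of 2 biological replicates and no untagged or second group, so the values below compare regions within the same animals and carry no p-value. Whole animals mix all tissues, and a weak site cannot be told apart from a strong site in few cells. Whether the untagged protein was also made, and the copy number of the transgene, are not given in the labels. Sequencing depth is unknown, because the files list peaks without read totals.

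TBP binds the core promoter and bends the DNA of the TATA box, and all 3 nuclear RNA polymerases depend on it. Most promoters of RNA polymerase II lack a consensus TATA box and recruit TBP within the TFIID complex. In Caenorhabditis elegans many transcripts are trans-spliced, so that the original 5′ end is removed and replaced by a spliced leader, and the annotated 5′ end can then lie downstream of the place where transcription begins. Many genes also lie in operons, in which a single promoter serves several genes in a row.

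Stretches of 101 bases centred on the summit show what such sites look like. They are given 5′ to 3′ in the direction of the nearest gene, on ce11 (WBcel235). The first 4 lines hold a core promoter or factor motif, in capitals: TATATAA or TATAAA, sequences bound by TBP in TATA-box promoters, and GGGCGG, the reverse complement of CCGCCC, a motif bound by Sp1-type zinc finger factors.
cyp-34A8, chrV:3967832-3967932, minus strand: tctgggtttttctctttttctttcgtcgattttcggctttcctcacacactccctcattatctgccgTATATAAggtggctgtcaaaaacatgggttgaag
gly-7, chrV:1821401-1821501, minus strand: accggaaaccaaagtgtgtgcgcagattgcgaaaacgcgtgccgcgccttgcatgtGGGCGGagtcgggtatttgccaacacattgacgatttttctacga
lys-8, chrII:5585924-5586024, plus strand: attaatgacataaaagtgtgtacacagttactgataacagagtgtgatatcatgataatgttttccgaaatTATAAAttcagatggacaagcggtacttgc
snx-13, chrIV:17085002-17085102, minus strand: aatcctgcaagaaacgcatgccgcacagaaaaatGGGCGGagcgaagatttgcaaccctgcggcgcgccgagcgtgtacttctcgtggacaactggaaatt
At cyp-34A8, a cytochrome P450 gene, the first base of the TATATAA lay at -42 bp from the annotated 5′ end and the summit at -59 bp. At lys-8, a lysozyme gene, the TATAAA began at -183 bp and the summit was at -204 bp. At gly-7, which encodes an enzyme of mucin-type O-glycosylation, the GGGCGG began at -122 bp and the summit lay at -128 bp. The start of mrpl-39, a mitochondrial ribosomal protein gene on the opposite strand, was also in reach of that summit. At snx-13, a sorting nexin gene, the summit lay inside the gene, at 455 bp, in an intron.

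A further 3 sequences show sites without any of these motifs, as most weaker peaks were.
tlk-1, chrIII:9705491-9705591, plus strand: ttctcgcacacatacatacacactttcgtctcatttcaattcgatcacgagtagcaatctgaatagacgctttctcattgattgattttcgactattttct
F25B5.3, chrIII:5951729-5951829, plus strand: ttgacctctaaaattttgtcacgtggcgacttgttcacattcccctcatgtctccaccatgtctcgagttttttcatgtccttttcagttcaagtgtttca
orc-3, chrIII:1208004-1208104, plus strand: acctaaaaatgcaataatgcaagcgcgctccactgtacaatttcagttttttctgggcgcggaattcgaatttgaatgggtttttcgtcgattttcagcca
The tlk-1 site, at the gene of a Tousled-like kinase, was the strongest of the weaker peaks, at rank 3866. The F25B5.3 site, in an intron at -86 bp from an annotated start of the gene, was near the lower limit at rank 9916, and ranked 9112 in replicate 1 and 7723 in replicate 2. The orc-3 site, at the gene of an origin recognition complex subunit, was listed in replicate 1 and absent from the list of replicate 2.

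The limits of rank cut through a continuous series of signals. The deposited signal, whose scale is not stated, ran from 49.53 to 103.0 over the weaker peaks. The peak at tlk-1, just inside the upper limit, had a signal of 103.0, and the peak at prp-31, a splicing factor gene just outside it at rank 3862, had 103.1. At the lower limit F29C6.1, rank 10000, had 49.53, and Y34D9A.7, rank 10003, had 49.51. The farthest member, the peak at the dihydrolipoamide dehydrogenase gene dld-1, lay at -500 bp, and the nearest peak outside the rule at 501 bp. By the authors' deposited q-values, 2044 weaker peaks (84.1%) were under 0.05, against 82.3% of all 6138 pooled peaks of the same ranks. The q-value and the rank come from the same signal, so that count describes the ranks and not the position.

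Protein-coding starts held a larger share of the weaker ranks than of the genome, and that share declined along the ranks. Of the 6138 peaks of these ranks, 39.6% were weaker peaks at protein-coding starts, whereas 22.9% of genome bases met the same position rule. In steps of 1000 ranks from 4001 to 10000 the shares were 45.0%, 41.4%, 38.5%, 38.0%, 37.9% and 35.7%. The step before them, ranks 3001 to 4000, held 48.7%, and the last step of the list, ranks 29001 to 30000, held 22.4%. Each replicate's own list, cut at the same ranks, gave 38.8% in replicate 1 and 38.9% in replicate 2. Along the pooled list the share was 12.7% at ranks 1 to 1000 and highest, at 50.9%, at ranks 2001 to 3000. It was smaller at each further step through the weaker ranks.

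**Figure D1:**
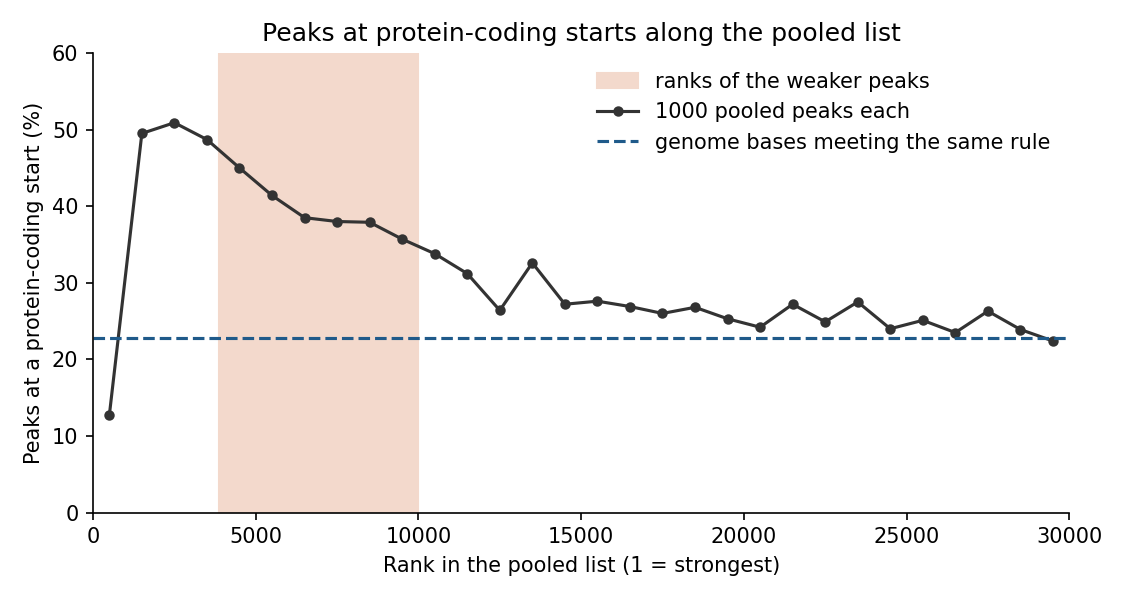
Share of pooled peaks (%) that met the position rule, in steps of 1000 ranks (points), against rank in the pooled list. The shaded ranks are those of the weaker peaks, where the share was 45.0% at ranks 4001 to 5000 and 35.7% at ranks 9001 to 10000, and the dashed line is the 22.9% of genome bases that met the same rule.

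Weaker peaks lay mostly upstream of the annotated start, closer to it and more spread out than stronger peaks. The median summit position was -67 bp from the nearest 5′ end (interquartile range -197 to 87.5 bp) for weaker peaks, against -156 bp (-256 to -49 bp) for stronger peaks and 38 bp (-162 to 252 bp) for later ones. Upstream summits numbered 1523 of 2431 weaker peaks (62.6%) and 1314 of 1552 stronger peaks (84.7%). Later peaks, at 44.6%, and genome bases under the rule, at 48.0%, were near an even split. In each replicate's own list at the same ranks replicate 1 had a median of -64 bp and replicate 2 one of -70 bp, an SD of 4.24 bp (n = 2). The weaker and stronger medians thus lay farther apart than the replicates, although the replicates' reads also make up the pooled list.

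**Figure D2:**
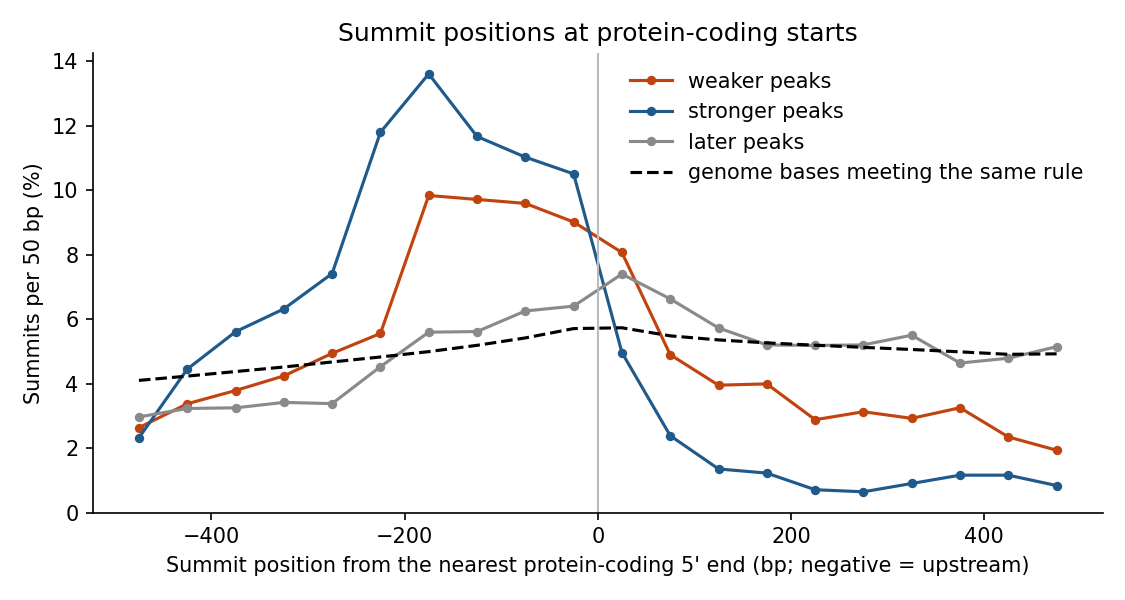
Summit positions from the nearest protein-coding 5′ end (bp, negative is upstream), as the percent of each group's summits in every 50 bp, for weaker, stronger and later peaks, with genome bases under the same rule as a dashed line. In the 50 bp bin centred at -175 bp lay 9.83% of weaker peaks, 13.6% of stronger peaks, 5.59% of later peaks and 4.99% of genome bases.

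Within the weaker peaks the position moved with rank. In 4 rank ranges of equal width, from the strongest to the weakest, the median summit lay at -103, -87, -54 and -15 bp, and 71.3%, 64.6%, 60.6% and 52.3% of summits were upstream. The weakest of these ranges was thus near the 48.0% of genome bases. The summit fell in a coding exon in 533 weaker peaks (21.9%), against 4.06% of stronger peaks, 37.0% of later peaks and 29.2% of genome bases under the rule. It lay outside any protein-coding transcript in 1121 (46.1%), against 73.2%, 26.1% and 32.8% in the same order. Introns held 21.5% and untranslated exons 10.49% of the weaker summits. On each of these measures except untranslated exons the weaker peaks stood between the stronger and the later ones.

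Among the strongest of the weaker peaks the positions were mixed. The 10 strongest that were also among the 10000 strongest of both replicates included 7 with an upstream summit: tlk-1 at -85 bp, gly-7 at -128 bp, Y39G10AR.11 at -162 bp, Y73C8B.3 at -87 bp, cyp-34A8 at -59 bp, C28H8.2 at -114 bp, where tdo-2, which encodes tryptophan dioxygenase, was also in reach, and syp-3, a gene of the synaptonemal complex that pairs meiotic chromosomes, at -2 bp. The other 3 lay inside the gene. The summit was at 14 bp for K04F10.7, at 436 bp in a coding exon of the ribosomal protein gene rpl-35, and at 455 bp for snx-13.

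Most weaker peaks were listed in both replicates, at about the rate of other peaks of their ranks. An overlapping peak was present among the 30000 of replicate 1 for 2398 weaker peaks (98.6%), among those of replicate 2 for 2241 (92.2%), in both for 2210 (90.9%) and in neither for 2. Of all 6138 pooled peaks of the same ranks 90.7% were listed in both, close to the share at gene starts. The lists are long: they covered 9.71% of the genome in replicate 1 and 12.8% in replicate 2. Among the 10000 strongest of both replicates were 1078 weaker peaks (44.3%), against 42.3% of all peaks of the same ranks, 97.2% of stronger peaks and 7.39% of later peaks. These ranks are of the strongest overlapping peak, which can belong to a neighbouring summit. With the overlapping peak of the nearest summit, a choice made after seeing the data, 957 weaker peaks (39.4%) were among the 10000 strongest of both, against 37.5% of all peaks of the same ranks. By the strongest peak the share moved with pooled rank, with 78.4%, 52.4%, 26.99% and 12.9% in the 4 rank ranges from strongest to weakest. Over all pooled peaks of the same ranges it was nearly the same, at 79.1%, 52.3%, 25.6% and 12.2%, so the change describes the ranks and not the position. By position it was 47.3% (720 of 1523) for summits upstream of the start and 39.4% (358 of 908) for those downstream. The upstream summits also ranked higher in the pooled list, with a median rank of 6445, against 7292.5 for the downstream ones.

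The replicate summits lay near the pooled ones at most weaker peaks, while the ranks differed. The distance to the pooled summit was a median of 10 bp in replicate 1 (upper quartile 36 bp) and 39 bp in replicate 2 (upper quartile 87 bp), bounded by the overlap that defined the match. Of the 2210 weaker peaks listed in both, 1637 had a summit within 100 bp in each replicate. Replicate 2 also had wider peaks, most often 480 bp, against 336 bp in replicate 1. The median rank was 6950.5 in replicate 1 (interquartile range 5222 to 9760) and 7692 in replicate 2 (5075 to 12440). Across the 2210 weaker peaks listed in both, the Spearman correlation of the 2 ranks was 0.12, and 0.017 with the peak of the nearest summit. All of these peaks come from the same pair of libraries, and the narrow range of pooled ranks that chose them limits the value. It is given as a description. Over the 1539 stronger peaks listed in both, whose ranks span the top of the list, it was 0.74, and 0.73 with the nearest summit.

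**Figure D3:**
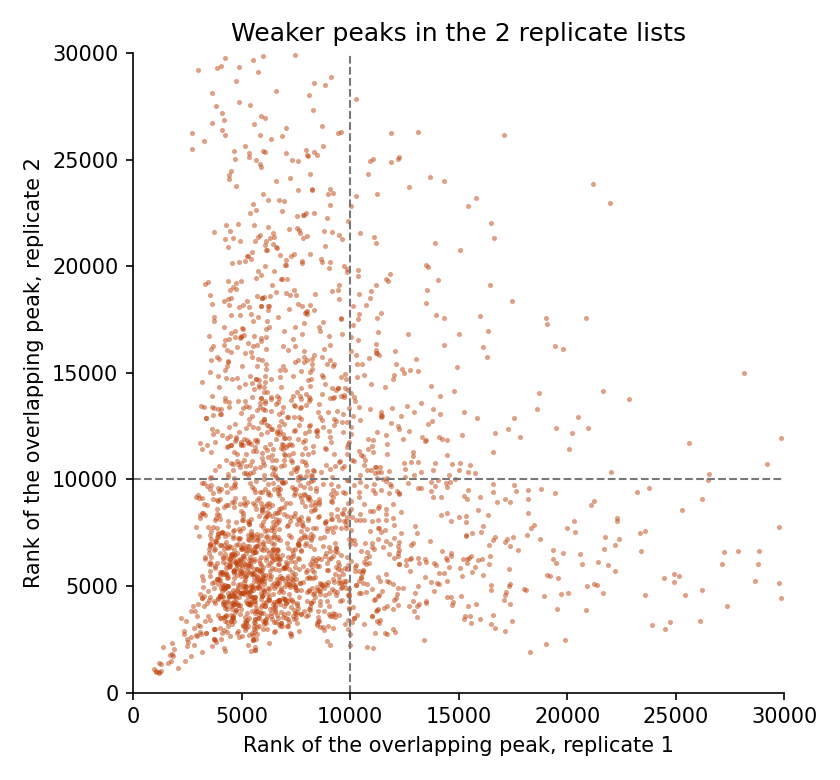
Rank of the overlapping peak in replicate 1 (horizontal) and replicate 2 (vertical) for the 2210 weaker peaks listed in both, 1 point each, with dashed lines at rank 10000. The 1078 points below and left of both lines are those among the 10000 strongest of each replicate, and the median rank was 6950.5 in replicate 1 and 7692 in replicate 2.

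Single sites show how far the ranks could differ. The cyp-34A8 peak ranked 3879 in the pooled list, 5637 in replicate 1 and 3725 in replicate 2, and the replicate summits lay 2 bp and 1 bp from the pooled one. The tlk-1 peak ranked 3866, 4986 and 3901 in the same lists. The rpb-8 peak, at the gene of an RNA polymerase II subunit, ranked 3961, 4310 and 2826. These 3 sites held similar places in all lists. At pbs-3, a gene of a 20S proteasome beta subunit, the ranks were 3933 in the pooled list, 3655 in replicate 1 and 26716 in replicate 2.

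Of the strongest weaker peaks with no overlapping peak in one replicate, 4 of 5 were missing from replicate 2. T22D1.8, at pooled rank 3896, Y65B4A.8 at 3986, orc-3 at 4261 and tctn-1, a ciliary transition zone gene, at 4298 had ranks 3039, 4549, 3487 and 3294 in replicate 1 and no peak in the list of replicate 2. C18A11.1, at pooled rank 4283, had rank 3477 in replicate 2 and none in replicate 1. Over all weaker peaks 188 were listed in replicate 1 alone and 31 in replicate 2 alone. The weakest members that both replicates placed high were atg-7, which encodes an activating enzyme of autophagy, ostd-1, an oligosaccharyltransferase subunit gene, F25B5.3, xdh-1, the xanthine dehydrogenase gene, and dpf-5, a dipeptidyl peptidase gene. The F25B5.3, ostd-1 and dpf-5 peaks kept the same ranks when the replicate peak of the nearest summit was taken. In replicate 2, however, that summit lay 273 bp from the pooled one at ostd-1 and 137 bp at dpf-5, against 2 bp at F25B5.3. At atg-7, pooled rank 9898, the strongest overlapping peaks ranked 4220 in replicate 1 and 4901 in replicate 2, but those of the nearest summit ranked 4220 and 14709. At xdh-1 the nearest summit ranked 6380 in replicate 1 and 22061 in replicate 2.

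The members with the highest replicate ranks all lay beside a reproducible summit. At ubc-6, a ubiquitin-conjugating enzyme gene, the weaker summit lay 212 bp from a reproducible one and ranked 4339 in the pooled list. The strongest overlapping peak ranked 950 in replicate 1 and 1121 in replicate 2, whereas the replicate peak of the nearest summit ranked 2733 and 3727 in these lists. The peaks at D2096.7, jmjd-1.2, which encodes a histone demethylase, sec-61.A, a translocon subunit gene, kin-14 and lelo-2 lay 200 to 204 bp from a reproducible summit. At D2096.7 the strongest overlapping peaks ranked 1065 and 963 in replicates 1 and 2, and those of the nearest summit 6775 and 16462. At each of these 6 sites another replicate peak lay nearer to the weaker summit than the strongest one, in both replicates, except at lelo-2 in replicate 1. Over all weaker peaks, 66 (2.71%) lay within 500 bp of a reproducible summit, and the median distance was 4572 bp.

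By gene, the weaker peaks reached somewhat more promoters than the reproducible ones. They were taken from 6138 ranks and the reproducible ones from 3862, so the counts rest on unlike numbers of peaks. A weaker peak lay within 500 bp of a 5′ end of 2457 of 19973 protein-coding genes (12.3%), and a reproducible peak within 500 bp of 2027 (10.1%). Here and below, gene counts for reproducible peaks take in peaks outside the stronger group. By the full position rule, as used for the 2431 weaker peaks, the 1552 stronger peaks reached 1862 genes. Both kinds were present at 282 genes, 11.5% of the genes with a weaker peak and 13.9% of those with a reproducible one, near the shares over all genes. Of the 17946 genes without a reproducible peak, 2175 (12.1%) had a weaker one. Together the 2 kinds reached 4202 genes (21.04%). At the 289 weaker peaks whose nearest gene also had a reproducible peak, the summit was at a median of 22 bp and 46.7% were upstream. At the other 2142 it was at -75.5 bp and 64.8% were upstream.

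The share of weaker peaks with starts on both strands in reach was below that of stronger peaks, and their share within runs of genes was above it. Neither difference was tested. Annotated starts on both strands were in reach of 228 weaker peaks (9.38%), against 355 stronger peaks (22.9%) and 217 later ones (4.07%). The nearest gene began within 200 bp downstream of the end of another gene on the same strand, the tandem arrangement typical of operons, at 437 weaker peaks (17.98%), against 8.12% of stronger peaks, 15.6% of later peaks and 9.51% of all protein-coding genes. Counted by gene, 420 of 1900 tandem genes (22.1%) had a weaker peak and 141 (7.42%) a reproducible one. Of 3511 divergent genes, whose start faces another within 1000 bp, 596 (16.98%) had a weaker peak and 831 (23.7%) a reproducible one. Of the other 14562 genes, 9.90% had a weaker and 7.24% a reproducible peak. Operons as such were not in the annotation used, and tandem spacing alone does not define one.

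Chromosomes I and III had the densest weaker peaks per base and gene, and X the fewest per base. There were 28.0, 26.96, 29.7, 27.9, 20.7 and 15.01 weaker peaks per Mb on chromosomes I, II, III, IV, V and X. The share of genes with a weaker peak was 15.8%, 11.3%, 16.6%, 14.4%, 8.93% and 9.26% in the same order. For each stronger peak there were 1.38 weaker ones on III and 1.86 on X, the ends of that range.

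The share of genes with a weaker peak varied widely between gene lists. In 37 lists of genes selected by symbol, 22 had a larger share of genes with a weaker peak than the 12.3% of all protein-coding genes, from 12.5% to 42.4%, and 15 had a smaller one, from 0.61% to 12.2%. The upper lists mixed cell machinery, such as the proteasome, with meiotic and small RNA genes. Histones (8 of 72) and tubulins and actins (2 of 18), at 11.1% each, were near the background. So were kinesins, dynein and dynactin (4 of 32, 12.5%) and cytochrome P450 genes (9 of 74, 12.2%), which fell on either side of it. The lists were drawn up by hand with earlier results of these data known, and the shares are descriptions without a test. Summit positions given by list are from the listed gene's own 5′ end, which is not always the nearest one.

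**Figure D4:**
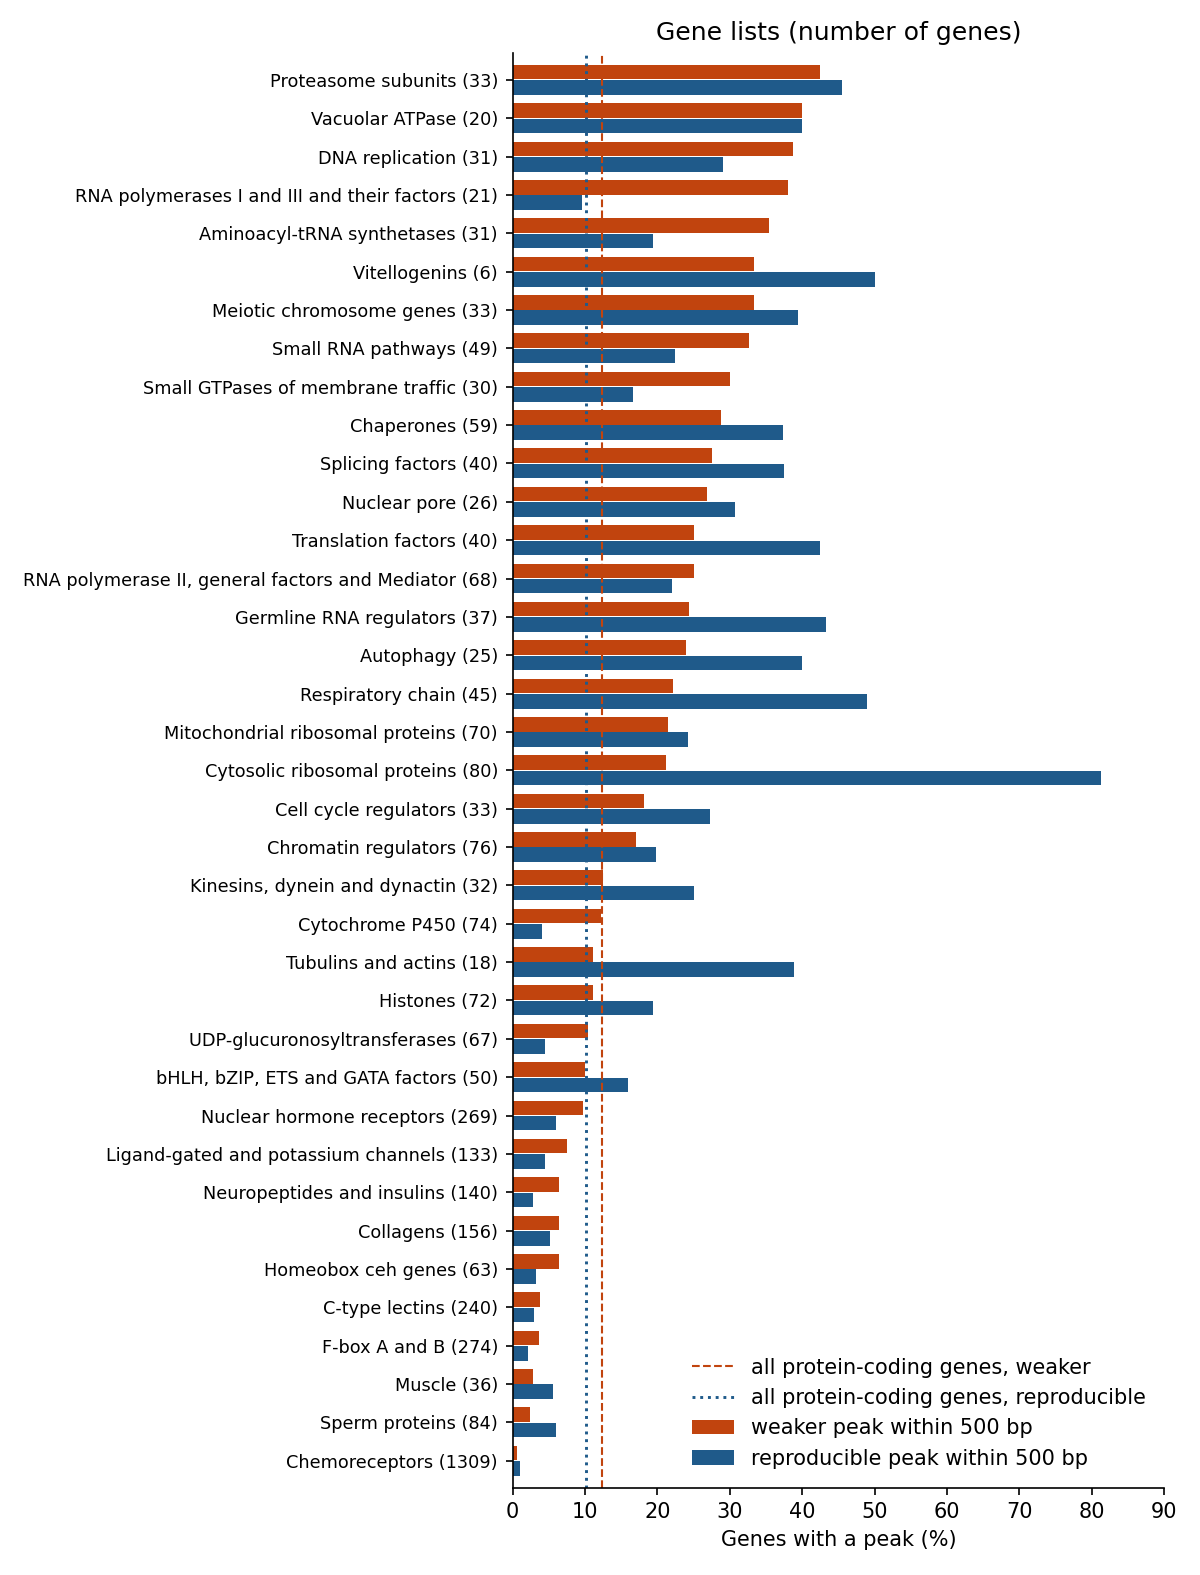
Percent of the genes of each list (number of genes in parentheses) with a weaker peak (red bars, above) and with a reproducible peak (blue bars) within 500 bp of a 5′ end, ordered by the weaker share. The lines mark all protein-coding genes, at 12.3% for weaker and 10.1% for reproducible peaks, and the proteasome list is at the top, with 42.4% weaker and 45.5% reproducible, and the chemoreceptors at the bottom, with 0.61% and 0.99%.

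The proteasome and the vacuolar ATPase headed the order. The proteasome, which degrades ubiquitin-tagged proteins, had weaker peaks at 14 of 33 subunit genes (42.4%) and reproducible ones at 15, with 2 genes carrying both. Of its 18 genes without a reproducible peak, 12 (66.7%) had a weaker one. The strongest were at pas-3, a 20S alpha subunit gene, with its summit at -164 bp and ranks 3922 in the pooled list, 4338 in replicate 1 and 3324 in replicate 2, and at pbs-3. The pas-3 summit was nearer to use-1, at 8 bp from its start. The vacuolar ATPase, the proton pump of acidic compartments, had weaker peaks at 8 of 20 genes (40.0%), led by vha-11, at 284 bp in an intron, and vha-19, at -358 bp. Autophagy genes, lower in the order, had them at 6 of 25 (24.0%), with lgg-3, a ubiquitin-like protein of autophagosome formation, at -349 bp and ranks 4255, 4243 and 3955 in the pooled list and replicates 1 and 2. The lgg-3 summit was nearer to rgs-5, at -193 bp.

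Genes that make the transcription and translation machinery were also above the background, with genes with a weaker peak outnumbering those with a reproducible one in some lists. Subunits and factors of RNA polymerases I and III had weaker peaks at 8 of 21 genes and reproducible ones at 2 (38.1% and 9.52%). The leading sites were rpoa-12, an RNA polymerase I subunit gene, at -91 bp and pooled rank 4485, and snpc-3.1, which encodes part of the complex for small nuclear RNA promoters, at -227 bp and rank 4920. For RNA polymerase II, the general factors and Mediator the counts were 17 and 15 of 68, led by rpb-8 at -169 bp and taf-3, a gene for a TBP-associated factor, at -346 bp. The taf-3 peak ranked 3349 in replicate 1 and 12895 in replicate 2. Aminoacyl-tRNA synthetases, which charge tRNAs, had weaker peaks at 11 of 31 genes and reproducible ones at 6, with nars-1 at -419 bp and yars-2 at -28 bp. The nars-1 summit was nearer to nduf-6, at -259 bp. Mitochondrial ribosomal proteins had them at 15 and 17 of 70 genes, and none of the 15 genes had both, where 11.5% of all genes with a weaker peak did; mrpl-39 and mrpl-50 led, at pooled ranks 3868 and 3942.

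In the cytosolic ribosomal protein list, genes with a reproducible peak outnumbered those with a weaker one. Of 80 genes, 17 (21.2%) had a weaker peak and 65 (81.2%) a reproducible one, and 12 of the 17 had both. Their weaker summits lay downstream of the start in 12 of 17 genes, at a median of 260 bp. At rpl-35 the summit was in a coding exon at 436 bp, and 889 bp from the nearest reproducible summit, and at rpl-39 it was in a coding exon at 419 bp, 688 bp from one. Chaperone genes had a similar pattern, with 12 of 17 weaker summits downstream and a median of 231 bp, although 11 of their 17 genes had no reproducible peak. Other lists with most weaker summits downstream included small GTPases of membrane traffic (7 of 9, median 169 bp) and histones (5 of 8, median 296 bp).

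The DNA replication, nuclear pore and cell cycle lists had nearly all weaker summits upstream of the listed gene. This was not particular to them, as F-box genes had 9 of 10 upstream and C-type lectin genes 8 of 9. Nor did it hold for all nuclear lists, with 8 of 13 for chromatin regulators, 7 of 11 for splicing factors and 3 of 8 for histones. The 62.6% over all weaker peaks is measured from the nearest 5′ end of any gene, so the shares are not alike. At cyb-1 the summit lay at -478 bp, but at -150 bp from the nearer orc-5, and this peak counts in 2 lists. At mcm-10, npp-10 and htp-1 another gene was also nearer: teg-1 at -175 bp, cyk-3 at -181 bp and ZK616.5 at -87 bp. DNA replication genes had weaker peaks at 12 of 31 (38.7%) and reproducible ones at 9, and 11 of the 12 summits were upstream, at a median of -141 bp. The strongest was at mcm-10, a replication initiation gene, at -340 bp, with ranks 3893 in the pooled list, 3552 in replicate 1 and 6113 in replicate 2. All 7 nuclear pore genes with a weaker peak, of 26, had it upstream, among them npp-10 at -416 bp and npp-11. Cell cycle regulators had 6 of 33, all upstream, including cdc-14, a phosphatase gene, at -293 bp and cyb-1, a cyclin B gene, at -478 bp. Small RNA pathway genes had 16 of 49 (32.7%), with 12 upstream, meiotic chromosome genes 11 of 33 (33.3%), with 7 upstream, and germline RNA regulators 9 of 37 (24.3%), with 5 upstream, closer to the overall share. The meiotic list included htp-1, which encodes a protein of the meiotic chromosome axis, at -285 bp, ranked 4014 in replicate 1 and 13050 in replicate 2. Young adults hold a large germline, and the tissue that gave each peak was not tested.

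The vitellogenin list was small, and the cytochrome P450 list was at the background rate. Of the 6 vitellogenin genes for yolk proteins, which the adult intestine makes, 2 had a weaker peak and 3 a reproducible one. The vit-5 peak lay at -115 bp and ranked 4147, 5031 and 4676 in the pooled list and replicates 1 and 2. The vit-2 peak lay inside the gene, in a coding exon, 212 bp from a reproducible summit. Cytochrome P450 genes had weaker peaks at 9 of 74 (12.2%), the background rate, and reproducible ones at 3. Its leading member, cyp-34A8, was 163812 bp from the nearest reproducible summit.

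Chemoreceptor, sperm, muscle, F-box and lectin lists were at the bottom. Chemoreceptor genes, a large class of receptors of sensory neurons, had weaker peaks at 8 of 1309 (0.61%), led by srh-283 at pooled rank 5324 and srd-35 at 5596, F-box genes at 10 of 274 (3.65%), C-type lectin genes at 9 of 240 (3.75%), muscle genes at 1 of 36 and sperm protein genes at 2 of 84. The muscle gene was pat-4, for integrin-linked kinase, at -314 bp, pooled rank 8996, which was absent from replicate 1 and ranked 6107 in replicate 2. Nuclear hormone receptors, a large family of transcription factors, had 26 of 269 (9.67%) and reproducible peaks at 16, with nhr-27 at -150 bp and nhr-49, a regulator of fat metabolism, at -156 bp. Neuropeptide and insulin genes had 9 of 140 and channel genes 10 of 133, and both had 7 summits downstream of the start.

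Sequence at the weaker summits was richer in G and C than its surroundings and poorer in TATAAA than annotated promoters. Motifs were counted on either strand in the 201 bases centred on a summit, in windows of that length 1000 bp to each side, and in the 201 bases that end at the 5′ end of each of 19973 protein-coding gene models. The TATAAA hexamer was in 425 weaker summit windows (17.5%), 18.4% of stronger and 17.3% of later ones, and in 18.8% of the flanking windows of weaker peaks. Of all promoters 30.5% held it. The longer TATATAA, searched after it was seen at cyp-34A8, was in 78 weaker windows (3.21%), against 3.31% of their flanks and 6.65% of promoters. No enrichment of either over the flanks was thus seen at weaker summits. Promoter windows had a lower G+C content, a median of 32.8%, against 38.8% at weaker summits, 40.3% at stronger and 39.1% at later ones, and the motif shares were not adjusted for it. The placement also differed and was not adjusted for. Promoter windows lay wholly upstream of the 5′ end, whereas 21.9% of weaker summits were in coding exons.

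Around weaker peaks the TATAAA was less frequent next to the summit than over a broad region upstream. In bins of 50 bp it was in 3.74% of the bins that end at the summit and in 6.05% of the next bin upstream. It was in 7.73%, 6.95%, 7.03%, 7.36% and 7.73% of the 5 bins that begin 150, 200, 250, 300 and 350 bp upstream, and in 5.76% of the bin that begins 500 bp upstream. For stronger peaks the shares were 3.42% in the bin that ends at the summit and 9.28% in the one that begins 150 bp upstream. G+C content ran the other way, at 41.3% and 34.7% in the same bins of weaker peaks. Of the weaker peaks 182 had the hexamer within 50 bp of the summit. The strongest of these were T22D1.8, xpa-1, a nucleotide excision repair gene, F23C8.5, pdha-1, a pyruvate dehydrogenase subunit gene, and lys-8, at pooled ranks 3896 to 3965.

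**Figure D5:**
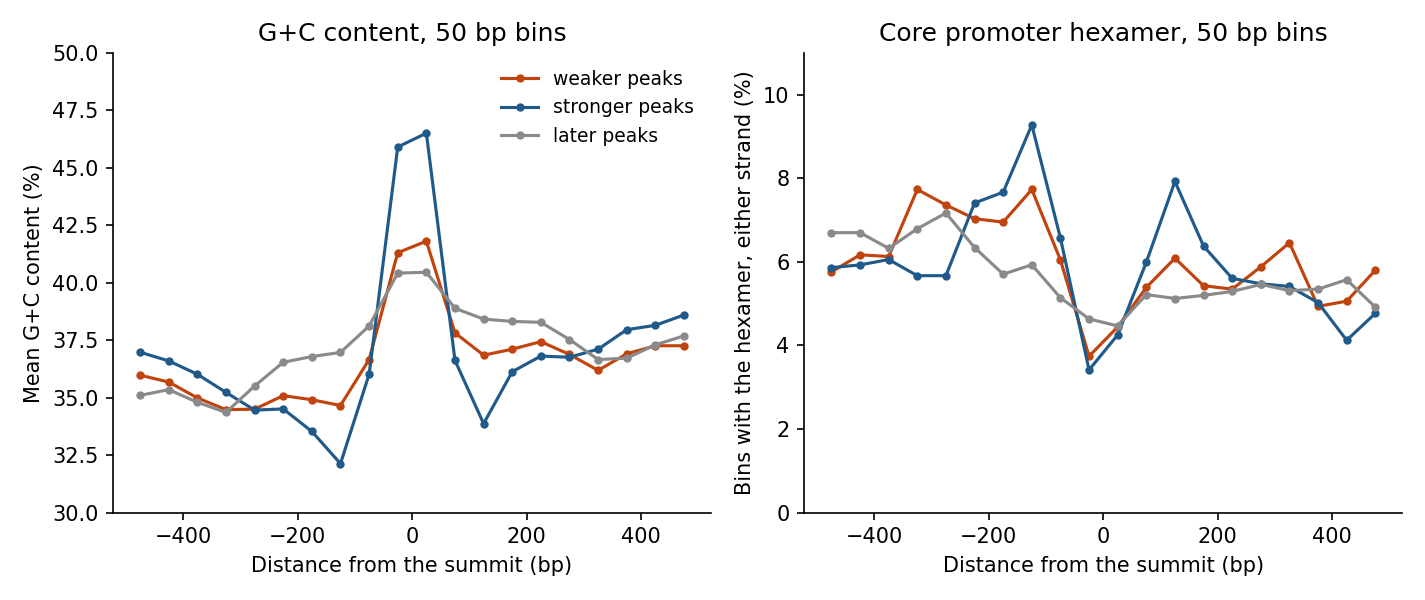
Mean G+C content (%, left, axis from 30%) and percent of 50 bp bins that hold the core promoter hexamer of the TATA box on either strand (right), by distance from the summit in bp, in the direction of the nearest gene, for weaker, stronger and later peaks. At weaker peaks the G+C content reached 41.8% in the bin that begins at the summit, where stronger peaks had 46.5% and later ones 40.5%, and the hexamer was least frequent next to the summit.

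Of the other motifs, GAGAGA and CCGCCC were more frequent at weaker summits than beside them. TTTCAG was less frequent there, and TTTTTT and GTTCGANNC had about equal shares in both. The GAGAGA repeat, bound by GAGA-type factors in Drosophila, was in 555 weaker windows (22.8%), against 27.5% of stronger and 15.4% of later windows, and in 12.3% of the flanks of weaker peaks and 16.3% of promoters. CCGCCC was in 175 weaker windows (7.20%), against 9.92% of stronger and 5.18% of later windows, with 3.41% in the flanks of weaker peaks and 5.97% of promoters. For both, the weaker peaks were between the stronger and the later. The TTTCAG of the 3′ splice site, also used in trans-splicing, was in 31.3% of weaker windows, against 24.3% of stronger and 35.6% of later ones, and 38.7% of the weaker flanks and 37.1% of promoters held it. TTTTTT was in 56.7% of weaker windows and of their flanks, and in 70.6% of promoters. The GTTCGANNC of the tRNA B box, an RNA polymerase III element, was in 49 weaker windows (2.02%), against 1.87% of their flanks, 3.87% of stronger windows and 0.91% of promoters. A match describes the letters in a window and is not a site of binding.

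The genes of the transgene and the RNA polymerase II gene ama-1 were outside the weaker peaks. At tbp-1, on chromosome III from 7384033 to 7386124, the pooled peak in reach ranked 1585, at 87 bp, and belonged to the stronger ranks. No pooled peak was in reach of unc-119, and that of ama-1, which encodes the catalytic RPB1 subunit of RNA polymerase II, ranked 17324, below the lower limit.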

How the data were processed

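TBP-1::GFP ChIP-seq of whole young adults was deposited as narrowPeak lists on ce11: 1 per biological replicate, 1 called on pooled replicates and 1 that passed IDR (irreproducible discovery rate), as the deposited descriptions state. Each replicate list and the pooled list hold 30000 peaks, called against a control alignment that was not analysed here. The pooled list is named as peaks and background that served as input for IDR. No aligner or peak caller was given in the sources used here. The authors deposited a signal value per peak on an unstated scale, which was used only for ranks within 1 list. Their deposited −log10 q-value was used for the count under 0.05, and was capped at 3.96, so it could not rank the strongest peaks. The summit offset of each peak, another deposited value, gave its position. Depth per sample is unknown, so no interval that needs it is given.

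All 3862 reproducible peaks were the 3862 strongest of the pooled list. A replicate listed a weaker peak where a peak overlapped it by at least 1 bp, and the strongest such peak gave the replicate rank, unless the nearest summit is named. Gene starts were the 5′ ends of protein-coding transcripts of Ensembl release 115 on WBcel235, the same build as ce11. Genes were named by a fixed rule: tbp-1, unc-119 and ama-1; members at the limits of rank and distance; the 10 strongest and 5 weakest members among the 10000 strongest of both replicates; the 5 strongest members missing from a replicate list; the 5 with the best rank in each replicate; the 2 strongest in each gene list; and the 5 strongest with TATAAA within 50 bp of the summit. The members and the gene lists, patterns of gene symbols, were chosen with earlier results of these data known, and genes of other function that shared a prefix were removed from 8 lists after their values were seen. There was 1 group of 2 replicates, peaks and genes are not replicates, and no test was made. The rule was tested on simulated peaks. The software was Python 3.11.15 with pandas 2.3.3, numpy 2.4.6 and, for figures, matplotlib 3.10.9. Alternatives were other windows, gene-model ends, the stronger part of the ranks, the peak interval, single replicates, other overlaps and other motif windows.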

Additional observations from a re-analysis of the deposited data

How the results depend on the processing

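The share of the weaker ranks at protein-coding starts, 39.6%, was 26.9% with a window of 250 bp, 55.5% with 1000 bp, 33.1% with gene-model 5′ ends, 45.3% with the whole peak interval and 42.1% over ranks 3863 to 6931. In single replicates it was 38.8% to 38.9%. The median summit position, -67 bp, was -54 bp with a window of 250 bp, -93 bp over ranks 3863 to 6931 and -61 bp without summits between divergent ends; it is not defined for the peak interval. Over ranks 3863 to 6931 there were 1293 weaker peaks at 1394 genes, 1230 of them listed in both replicates. Of the 2210 weaker peaks listed in both replicates, 1078 were among the 10000 strongest of each, or 957 by the peak of the nearest summit, an alternative chosen after seeing the data. The share of weaker summits with TATAAA, 17.5%, was 7.49% within 50 bp, 31.3% in the peak interval, 9.54% on the strand of the nearest gene, and 18.03% to 19.89% in the weaker ranks of single replicates. The cause of these differences was not tested, beyond the smaller or larger windows themselves. In the other 31 settings, among them overlap of 50% of both peaks, a replicate summit within 100 bp and leaving out peaks within 20 kb of tbp-1 or unc-119, counts stayed within 1.5 times and positions within the SD between replicates. No paired analysis was possible because the labels give only 1 group. The limits are the unknown depth, the lack of an untagged control, and the pooled list that shares its reads with the replicate lists.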
